A study of Mus musculus with 8 samples.

Results

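Accessible chromatin at 9 genes of the intrinsic apoptosis pathway was examined in mouse retinal ganglion cells (RGCs) after optic nerve crush (ONC). The genes were Bax, Bcl2, Bcl2l1, Bcl2l11, Bbc3, Hrk, Pmaip1, Casp9 and Apaf1. They were chosen by their known function, with earlier results of these data known. Every peak that overlapped any of them or the 10 kb on either side was taken. Overlapping peaks of the 8 lists (1 bp or more in common) were joined into merged regions, and 113 of 189914 merged regions fell at these genes. RGCs of adult C57BL/6J mice of both sexes had received AAV2 carrying GFP (control, 3 samples), Ezh2 (3 samples) or Ezh2-Y726D, a catalytically dead form (2 samples). AAV2 was injected into the vitreous, the nerve was crushed after 2 weeks in every group, and cells were sorted 3 days later, with 50000 cells per library. All groups thus carried both a virus and an injury, and no uninjured sample is analysed here. AAV2 reaches RGCs and, less often, other retinal cells, and cells were sorted by the surface protein CD90.2 (Thy1), which T cells of the mouse also carry.

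The intrinsic pathway decides at the mitochondrial outer membrane whether a cell dies. Bax opens that membrane, Bcl2 and Bcl2l1 (Bcl-xL) restrain it, and the BH3-only proteins Bcl2l11 (Bim), Bbc3 (Puma), Hrk and Pmaip1 (Noxa) lift the restraint. Released cytochrome c assembles Apaf1 and Casp9 into the apoptosome, which starts the caspase cascade. RGCs with a crushed axon die largely through this route, and loss of Bax spares their cell bodies. Ezh2 is the methyltransferase of Polycomb repressive complex PRC2, which places the repressive mark H3K27me3.

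The starts of these genes are shown first, because a peak was present there in every list. Promoter sequences (RefSeq, GRCm38.p6, 250 bases before and 50 after each annotated start) were at hand for 8 of the 9 genes, in 13 entries. The 4 below cover the death effector, the gene with the most changing regions, a BH3-only gene and an apoptosome gene. Capitals mark each GC box, the letters GGGCGG on either strand.
Bcl2, chr1:106714241-106714540, minus strand: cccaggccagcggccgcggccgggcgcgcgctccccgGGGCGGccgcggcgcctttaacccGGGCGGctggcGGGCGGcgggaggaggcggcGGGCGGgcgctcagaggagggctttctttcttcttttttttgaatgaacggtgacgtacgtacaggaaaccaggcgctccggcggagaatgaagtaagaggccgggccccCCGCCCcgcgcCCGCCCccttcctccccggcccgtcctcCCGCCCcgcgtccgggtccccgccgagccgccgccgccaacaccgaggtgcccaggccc
Bax, chr7:45466849-45467148, minus strand: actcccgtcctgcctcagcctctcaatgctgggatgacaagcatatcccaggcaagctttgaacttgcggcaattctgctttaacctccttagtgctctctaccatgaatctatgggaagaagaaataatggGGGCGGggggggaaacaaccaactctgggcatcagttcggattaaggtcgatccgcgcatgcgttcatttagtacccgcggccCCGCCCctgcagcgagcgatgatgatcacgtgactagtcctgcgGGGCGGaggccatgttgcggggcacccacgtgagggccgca
Hrk, chr5:118169514-118169813, plus strand: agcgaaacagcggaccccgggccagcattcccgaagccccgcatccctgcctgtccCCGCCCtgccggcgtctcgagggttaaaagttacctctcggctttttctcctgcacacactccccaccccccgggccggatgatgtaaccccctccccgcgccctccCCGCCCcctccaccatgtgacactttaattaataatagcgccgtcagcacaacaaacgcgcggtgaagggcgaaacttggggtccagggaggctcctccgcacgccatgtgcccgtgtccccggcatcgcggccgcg
Apaf1, chr10:91082694-91082993, minus strand: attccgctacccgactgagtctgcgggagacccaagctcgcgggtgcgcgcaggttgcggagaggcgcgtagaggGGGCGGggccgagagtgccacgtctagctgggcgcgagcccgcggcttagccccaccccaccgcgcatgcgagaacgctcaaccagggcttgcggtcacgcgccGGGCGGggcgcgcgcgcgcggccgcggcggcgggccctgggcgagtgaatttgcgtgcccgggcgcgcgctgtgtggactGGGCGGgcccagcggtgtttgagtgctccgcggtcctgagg
A GC box was found in 10 of the 13 entries, belonging to 7 of the 8 genes, and in 35.7% of the 32851 promoters of the table. The exception was Bcl2l1, with none in its 3 entries. CpG dinucleotides numbered 44 in the Bcl2 window, 19 in that of Bax, 29 in that of Hrk and 46 in that of Apaf1. Over the 13 entries the median was 29 CpG, against 7 over all promoters. The E-box CACGTG occurred at Bax and at Bbc3 (7.15% of all promoters), and the FOXO motif GTAAACA at Bcl2l11 and Bbc3 (3.65%). Neither the AP-1 motif TGANTCA (7.81% of all promoters) nor the CRE TGACGTCA (1.79%) was found in the 13 windows, with both strands read for every motif. Such matches describe letters only and show no binding.

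The lists held from 112939 to 135895 peaks, with a median width between 470 and 508 bp. Read numbers were not used here, so depth is unknown. The background pileup recovered from the steps of the fold, a relative index of depth, lay between 2.69 and 3.74 in the GFP lists, between 3.09 and 3.59 in the Ezh2 lists and at 2.39 and 3.12 in the Ezh2-Y726D lists. Markers were read as genes with a peak within 1 kb of a gene end. Of 20 RGC markers, 18 to 20 had a peak in each list, whereas 16 to 18 of 20 rod markers and 17 to 18 of 20 amacrine and of 20 Müller glia markers did so too, so this reading does not set RGCs apart from other retinal cells. T cell markers numbered 15 to 18 of 20 in the GFP lists, 18 in each Ezh2 list and 7 to 8 in the Ezh2-Y726D lists. Microglia and macrophage markers numbered 13 to 17, 16 to 18 and 6 in each, respectively. Because these are sorted pools of cells, fewer cells with an open region and less opening per cell cannot be told apart.

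The fold of a peak is the pileup at its summit over the local background of the same library. It was compared as a percentile within its own list, in which 100 is the highest peak. Of the 113 regions, 39 had a peak in all 8 lists (34.5%, against 36.6% of all merged regions) and 20 in a single list (17.7%, against 17.2%). Bcl2 held 41 regions, Bcl2l1 22, Apaf1 13, Bcl2l11 8, Bax and Hrk 7 each, and Bbc3, Pmaip1 and Casp9 5 each. Per 10 kb of window the number ran from 1.15 at Apaf1 to 2.78 at Bax. Annotated starts lay within 1 kb of 9 regions, another 80 lay inside a gene, and 24 lay outside. Exons, introns and UTRs could not be told apart with the annotation used. The number of these regions with a peak was 65, 71 and 79 in the GFP lists, 77, 75 and 85 in the Ezh2 lists, and 61 and 70 in the Ezh2-Y726D lists. As shares these were 57.5%, 62.8% and 69.9% in the GFP lists, in which 58.3%, 56.8% and 68.0% of all merged regions had a peak. In the Ezh2 lists they were 68.1%, 66.4% and 75.2%, against 63.8%, 64.5% and 69.0%. In the Ezh2-Y726D lists they were 54.0% and 61.9%, against 63.2% and 65.6%.

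**Figure D1:**
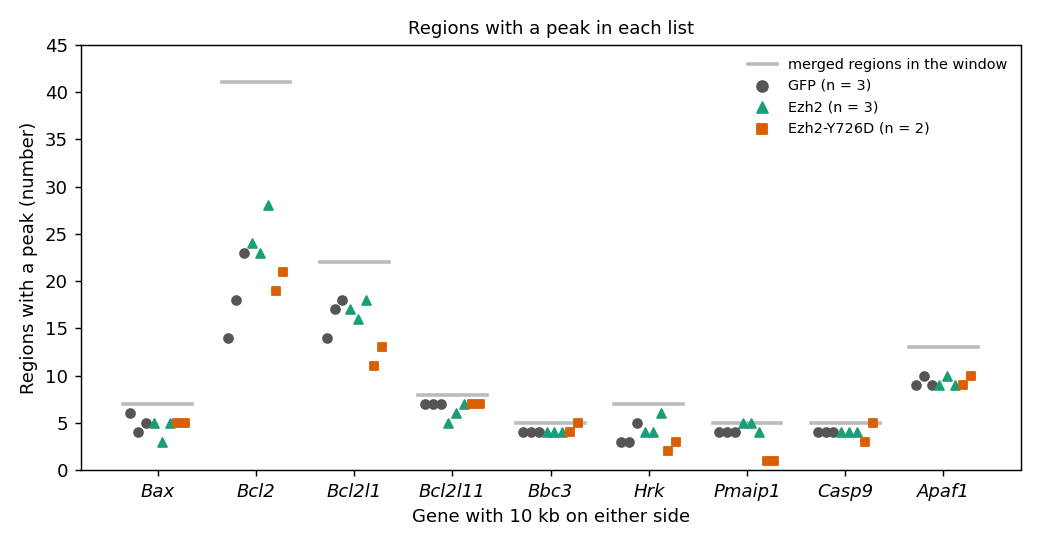
Number of merged regions with a peak (y axis) for each gene with 10 kb on either side (x axis), 1 point per list, with the number of merged regions in the window as a grey line. At Pmaip1 both Ezh2-Y726D lists had a peak in 1 region, whereas the GFP and Ezh2 lists had 4 or 5; at Bcl2 the Ezh2 lists had 23 to 28, the GFP lists 14 to 23 and the Ezh2-Y726D lists 19 and 21.

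All 9 genes had a gene-start region, defined as the region within 1 kb of an annotated start with the highest mean fold, and each of the 9 had a peak in all 8 lists. For Pmaip1, whose start was not in the promoter table, a region within 1 kb of either gene end was taken. In every list Bbc3 was the lowest of the 9, and either Apaf1 or Bax was the highest. The executioner of the membrane, Bax, had its gene-start region at chr7:45466249-45467277. Its percentiles were 95.1, 94.9 and 95.5 in the GFP lists, 92.7, 93.0 and 96.4 in the Ezh2 lists and 86.9 and 92.8 in the Ezh2-Y726D lists. The control lists lay within 1 percentile of each other, and Ezh2-Y726D replicate 1 was the lowest list. The other 6 regions in the window of Bax lay outside the gene, among them one at Ftl1, with percentiles from 79.0 to 87.5, and one at Gys1, with percentiles from 78.7 to 90.6. At Apaf1, the scaffold of the apoptosome, the region chr10:91082012-91083587 had percentiles of 94.9, 95.3 and 92.9 in the GFP lists, 93.0, 92.7 and 91.4 in the Ezh2 lists and 93.5 and 93.6 in the Ezh2-Y726D lists. This region also covers the start of Ikbip, so its accessibility cannot be assigned to 1 of these genes. Casp9, the initiator caspase, stood lower at chr4:141793007-141794234, with percentiles of 58.6, 57.5 and 59.8 in the GFP lists, 51.0, 57.6 and 59.8 in the Ezh2 lists and 50.5 and 53.3 in the Ezh2-Y726D lists. The Ezh2-Y726D lists lay below every GFP list and overlapped with the Ezh2 lists. A region inside Casp9, 16.5 kb downstream of the start, ranked above the start in every list, with percentiles from 90.3 to 96.5.

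The restraining genes stood between these levels. The start of Bcl2l1 (chr2:152830333-152831924) had percentiles of 89.6, 89.9 and 86.9 in the GFP lists, 87.5, 85.6 and 84.3 in the Ezh2 lists and 86.1 and 86.7 in the Ezh2-Y726D lists. The start of Bcl2 (chr1:106713585-106715017) had percentiles of 73.7, 76.6 and 72.5 in the GFP lists, 69.2, 73.8 and 73.8 in the Ezh2 lists and 69.2 and 76.1 in the Ezh2-Y726D lists. At both genes the largest gap between any pair of lists was under 10 percentiles. Among BH3-only genes, the start of Bcl2l11 (chr2:128126901-128128193) had percentiles of 58.9, 58.5 and 53.4 in the GFP lists, 52.0, 60.0 and 60.6 in the Ezh2 lists and 58.6 and 63.5 in the Ezh2-Y726D lists. Hrk, whose product acts mainly in neurons, had percentiles of 54.7, 58.1 and 57.6 in the GFP lists, 52.5, 60.6 and 62.7 in the Ezh2 lists and 46.7 and 62.8 in the Ezh2-Y726D lists at chr5:118169302-118170320. Groups overlapped at both. The Pmaip1 region had percentiles of 91.6, 85.2 and 86.7 in the GFP lists, 81.0, 84.8 and 79.4 in the Ezh2 lists and 87.7 and 84.1 in the Ezh2-Y726D lists. Every GFP list lay above every Ezh2 list there. Bbc3 stood apart, as its start (chr7:16309176-16311433) was near the bottom of each list, with percentiles of 7.27, 8.12 and 10.4 in the GFP lists, 12.1, 5.59 and 3.93 in the Ezh2 lists and 7.90 and 13.4 in the Ezh2-Y726D lists. In the same window, 18.0 kb from the start and inside the neighbouring gene Sae1, a region was near the top of each list, with percentiles from 97.9 to 99.6.

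**Figure D2:**
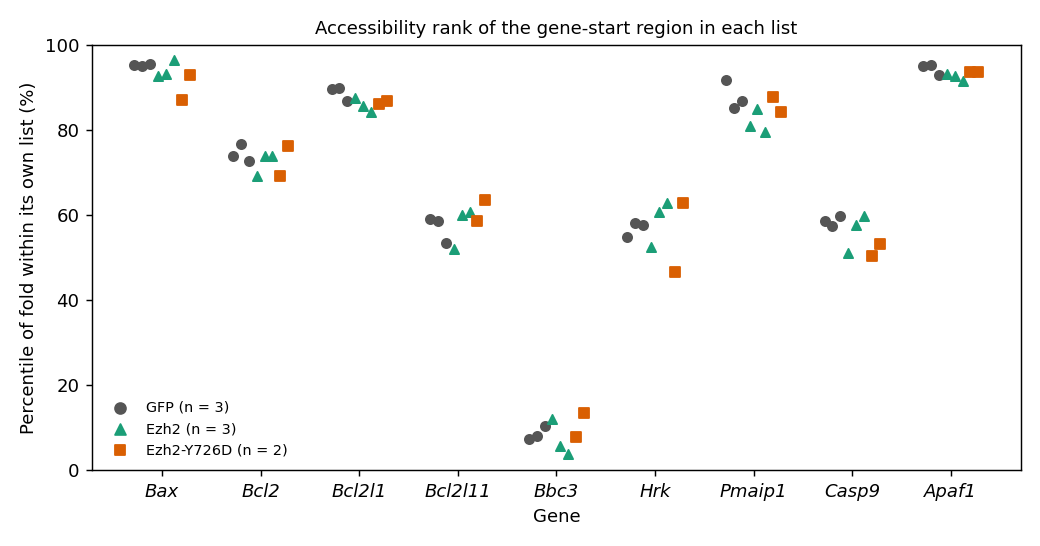
Percentile of fold within its own list (y axis) of the gene-start region of each gene (x axis), 1 point per list. The regions of Apaf1 and Bax sit between 86.9 and 96.4, that of Bbc3 between 3.93 and 13.4, and none of the 9 was called by limma in any comparison.

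Differences in rank were tested with limma on the regions present in all 8 lists. Within each list these regions were ranked among themselves. The ranks were turned into normal scores, on which 1 unit is 1 SD of the scores. The percentiles rank all peaks of a list, so scores and percentiles are on different scales. Adjusted p-values are Benjamini-Hochberg values over 69493 regions. No gene-start region was called in any of the 3 comparisons, which does not show that their ranks were equal, and at an unadjusted limma p under 0.05 only Bax in Ezh2-Y726D against GFP passed. The lowest adjusted p was 0.177, at Bax in Ezh2-Y726D against GFP, with a difference of -0.46 (SE 0.19). Against GFP, the differences with Ezh2 ran from -0.34 (SE 0.18) at Pmaip1 to 0.04 (SE 0.17) at Hrk, and those with Ezh2-Y726D from -0.46 at Bax to 0.13 (SE 0.20) at Bbc3. Between Ezh2 and Ezh2-Y726D they ran from -0.28 (SE 0.20) at Bbc3 to 0.34 (SE 0.19) at Bax. The summit varied little at most starts: across the 8 lists it moved by 9 bp at Bcl2l1, 16 bp at Pmaip1, 28 bp at Bcl2l11, 69 bp at Apaf1, 82 bp at Bax, 124 bp at Bcl2 and 162 bp at Hrk. It moved by 319 bp at Casp9 and by 822 bp at Bbc3, whose region spans 2258 bp and 3 annotated starts. Ranked by the deposited −log10 p instead of the fold, the Pmaip1 start was lower in Ezh2-Y726D than in GFP by limma (-0.65, adjusted p = 0.0188) and higher with Ezh2 than with Ezh2-Y726D (0.83, adjusted p = 0.00601), where the fold gave -0.16 and -0.19.

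Away from the starts, few of the 39 regions changed in rank in any comparison. In Ezh2 against GFP, 1 region was higher (2.56%) and 3 were lower (7.69%), where 1.59% of all tested regions were higher and 2.84% lower. In Ezh2-Y726D against GFP, 3 were higher (7.69%) and 1 was lower (2.56%), against 3.55% and 4.65% of all regions. In Ezh2 against Ezh2-Y726D, 0 were higher and 4 were lower (10.3%), against 7.0% and 6.96%. At an unadjusted limma p under 0.05, 6 of 39 passed in each comparison (15.4%), below the 20.0%, 24.4% and 29.4% of all regions. The median difference of the 39 was -0.10, -0.08 and -0.02 in the 3 comparisons, and that of all regions 0.01, -0.01 and 0.02. Both comparisons with GFP share the same control lists. The called regions lay in Bcl2, Bcl2l1, Bcl2l11 and Apaf1. None lay at Bax (3 tested), Bbc3 (4), Casp9 (3), Hrk (1) or Pmaip1 (1).

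**Figure D3:**
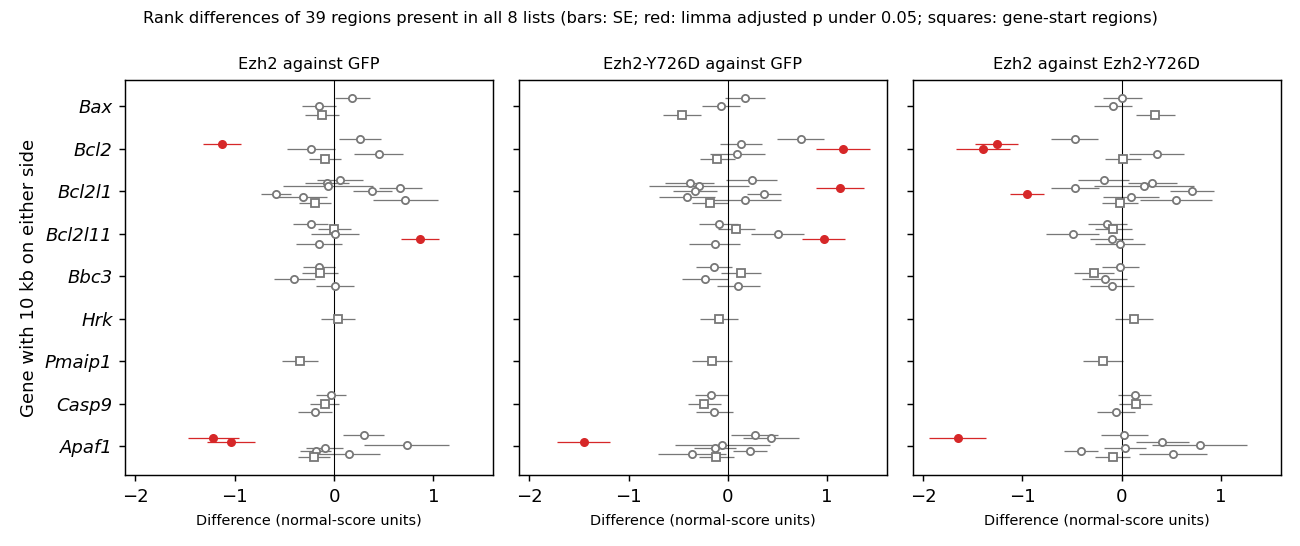
Difference in normal scores (x axis, with its SE) of the 39 regions present in all 8 lists, by gene (y axis), in the 3 comparisons; squares are gene-start regions and red marks a limma adjusted p under 0.05. Red points lie at Bcl2, Bcl2l1, Bcl2l11 and Apaf1, and no square is red.

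Inside Bcl2, the region chr1:106629243-106630517 (84.4 kb downstream of the start) had percentiles of 62.4, 65.9 and 63.1 in the GFP lists, 13.4, 34.4 and 33.2 in the Ezh2 lists and 69.3 and 69.1 in the Ezh2-Y726D lists. Every Ezh2 list lay below every other list. Its limma difference was -1.13 (SE 0.19, adjusted p = 0.0148) in Ezh2 against GFP and -1.26 (SE 0.21, adjusted p = 0.00499) in Ezh2 against Ezh2-Y726D. The first call was lost in 1 of 15 alternatives: without GFP replicate 2 (adjusted p = 0.0548), and the second was kept in each of the 15 alternatives. A further Bcl2 region, chr1:106650358-106651042 (63.6 kb downstream), had percentiles of 41.3, 28.7 and 27.2 in the GFP lists, 25.6, 10.4 and 43.1 in the Ezh2 lists and 71.6 and 72.9 in the Ezh2-Y726D lists. Both Ezh2-Y726D lists stood above all others. The difference was 1.16 (SE 0.27, adjusted p = 0.0304) in Ezh2-Y726D against GFP by limma, and this call was lost in 9 of 15 alternatives: when regions were ranked by −log10 p, among regions in at least 5 lists, with ranks among all peaks of a list, with the replicate number of the titles as a block, with that of the peak names as a block and when GFP replicates 2 and 3 and Ezh2-Y726D replicates 1 and 2 were each left out in turn (adjusted p from 0.0534 to 0.142). Against Ezh2-Y726D, Ezh2 had a difference of -1.39 (SE 0.27, adjusted p = 0.00958), lost in 3 of 15 alternatives: when regions were ranked by −log10 p and when Ezh2-Y726D replicates 1 and 2 were each left out in turn (adjusted p from 0.0548 to 0.0609).

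At Bcl2l1, which encodes a main survival protein of neurons in this family, the called regions were both weaker than its start. The region chr2:152780897-152781655 (52.5 kb downstream) had percentiles of 7.11, 2.94 and 1.88 in the GFP lists, 12.6, 21.7 and 13.9 in the Ezh2 lists and 38.8 and 22.9 in the Ezh2-Y726D lists. It was higher in Ezh2-Y726D than in GFP by 1.13 (SE 0.24, adjusted p = 0.0219) in limma, a call lost in 4 of 14 alternatives: when regions were ranked by −log10 p and when GFP replicates 2 and 3 and Ezh2-Y726D replicate 1 were each left out in turn (adjusted p from 0.0504 to 0.141). The region chr2:152794321-152795188 (39.0 kb downstream) had percentiles of 63.1, 61.4 and 70.4 in the GFP lists, 42.2, 45.1 and 53.5 in the Ezh2 lists and 78.2 and 75.1 in the Ezh2-Y726D lists. Ezh2 lists were the lowest here and Ezh2-Y726D lists the highest, without overlap. The limma difference of Ezh2 against Ezh2-Y726D was -0.95 (SE 0.17, adjusted p = 0.00670), a call lost in 1 of 15 alternatives: without Ezh2-Y726D replicate 1 (adjusted p = 0.0571).

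Bcl2l11 was the only BH3-only gene with a called region, chr2:128152746-128154018 (27.3 kb downstream of the first start). Its percentiles were 15.9, 5.87 and 15.9 in the GFP lists, 46.0, 33.2 and 43.6 in the Ezh2 lists and 49.9 and 39.1 in the Ezh2-Y726D lists. All 5 lists with Ezh2 or Ezh2-Y726D exceeded all 3 GFP lists. The limma difference was 0.86 (SE 0.19, adjusted p = 0.0358) for Ezh2 and 0.97 (SE 0.22, adjusted p = 0.0251) for Ezh2-Y726D. The call for Ezh2 was lost in 6 of 15 alternatives: with the replicate number of the peak names as a block and when GFP replicates 1, 2 and 3 and Ezh2 replicates 1 and 3 were each left out in turn (adjusted p from 0.0548 to 0.123), and that for Ezh2-Y726D was lost in 5 of 15 alternatives: when regions were ranked by −log10 p and when GFP replicates 2 and 3 and Ezh2-Y726D replicates 1 and 2 were each left out in turn (adjusted p from 0.0524 to 0.151). The remaining tested regions at Bcl2l11 were not called, among them a stronger one 14.0 kb downstream with percentiles from 70.4 to 89.9.

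In Apaf1, both called regions were lower with Ezh2 than with GFP. The region chr10:91001149-91001987 (81.2 kb downstream) had percentiles of 72.6, 59.9 and 73.9 in the GFP lists, 15.1, 51.5 and 23.8 in the Ezh2 lists and 82.6 and 80.4 in the Ezh2-Y726D lists. The Ezh2 lists lay below all others but spread over more than 35 percentiles. The limma difference was -1.21 (SE 0.26, adjusted p = 0.0303) against GFP, lost in 9 of 14 alternatives: when regions were ranked by −log10 p, with ranks among all peaks of a list, with the replicate number of the titles as a block, with that of the peak names as a block and when GFP replicates 1, 2 and 3 and Ezh2 replicates 1 and 3 were each left out in turn (adjusted p from 0.0602 to 0.0893), and -1.65 (SE 0.29, adjusted p = 0.00563) against Ezh2-Y726D, which was kept in each of 14 alternatives. The region chr10:91021370-91022223 (60.9 kb downstream) was among the strongest of the gene in the control, with percentiles of 92.5, 89.6 and 93.8 in the GFP lists, 69.8, 83.7 and 58.0 in the Ezh2 lists and 57.5 and 61.8 in the Ezh2-Y726D lists. It was lower than in GFP by limma with Ezh2-Y726D, at -1.45 (SE 0.27, adjusted p = 0.0128), and with Ezh2, at -1.04 (SE 0.24, adjusted p = 0.0404). The Ezh2-Y726D call was lost in 2 of 15 alternatives: when Ezh2-Y726D replicates 1 and 2 were each left out in turn (adjusted p from 0.0670 to 0.0917). The Ezh2 call was lost in 13 of 15 alternatives: when regions were ranked by −log10 p, among regions in at least 5 lists, with ranks among all peaks of a list, with the replicate number of the titles as a block, with only the 2 groups compared in the fit, with that of the peak names as a block and when GFP replicates 1, 2 and 3, Ezh2 replicates 1 and 3 and Ezh2-Y726D replicates 1 and 2 were each left out in turn (adjusted p from 0.0560 to 0.109).

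Groups also differed in where a peak was present. A region was counted as gained when every list of the first group and none of the second had a peak, and as lost in the reverse case, with no test. In Ezh2 against Ezh2-Y726D, 23 of the 113 regions were gained (20.4%), where 8.96% of all merged regions were, and 4 were lost (3.54%), where 6.14% were. With lists of equal length 8 were lost, where 6.04% of all regions were. A −log10 q of at least 5 gave 9 lost, where 4.86% of all regions were. Without Ezh2 replicate 3, 11 were lost, against 8.30% of all regions, and without Ezh2-Y726D replicate 1, 10 were, against 11.2%. In these settings 15 to 24 were gained, where 7.42% to 10.2% of all regions were. Of the 23, Bcl2 held 12, Bcl2l1 4, Hrk and Pmaip1 3 each and Apaf1 1, and 0 of them lay at an annotated start. In Ezh2-Y726D against GFP, 12 were lost (10.6%), where 4.72% of all regions were, and 5 were gained (4.42%), where 4.77% were. When peaks had to cover at least 0.5 of the region, these became 5 lost and 6 gained, where 4.26% and 6.24% of all regions were. Without Ezh2-Y726D replicate 1, 12 were lost and 11 gained, where 5.75% and 9.75% of all regions were. In Ezh2 against GFP, 6 were gained (5.31%) and 3 lost (2.65%), where 2.72% and 1.68% of all regions were. That split turned with lists of equal length (2 gained and 5 lost, where 2.14% and 2.23% of all regions were). It also turned with a −log10 q of at least 5 (3 and 5, against 2.16% and 1.47%). Without Ezh2 replicate 3 it was 6 and 7, against 3.50% and 2.37%. Of the 12 regions lost with Ezh2-Y726D, 10 had a peak in all 3 Ezh2 lists, which is 8.85% of the 113. Over all merged regions, 3.61% had a peak in all 6 GFP and Ezh2 lists and in neither Ezh2-Y726D list.

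Of the 10 regions with a peak in all GFP and Ezh2 lists and in neither Ezh2-Y726D list, 6 lay inside Bcl2. The strongest by mean percentile in the Ezh2 lists was chr1:106647215-106647882, 66.7 kb downstream of the start. Its percentiles were 57.5, 56.0 and 75.9 in the GFP lists and 90.5, 88.9 and 89.0 in the Ezh2 lists, with no peak in either Ezh2-Y726D list. As folds over background these were 5.18, 5.43 and 6.75 in the GFP lists and 9.48, 8.79 and 8.44 in the Ezh2 lists, with no peak in either Ezh2-Y726D list. The GFP lists thus lay in the upper part of their own lists, the Ezh2 lists near the top, and the Ezh2-Y726D lists had nothing that passed the peak caller. A similar order was seen at chr1:106600359-106601599 (113 kb downstream), with percentiles of 75.0, 59.1 and 75.2 in the GFP lists and 87.2, 86.7 and 90.9 in the Ezh2 lists, with no peak in either Ezh2-Y726D list. The region chr1:106612276-106613235 (102 kb downstream), which also lies in the gene model Gm37053, had percentiles of 75.4, 62.6 and 83.1 in the GFP lists and 88.5, 90.3 and 85.6 in the Ezh2 lists, with no peak in either Ezh2-Y726D list. At chr1:106581708-106582323 (132 kb downstream) they were 66.3, 54.6 and 72.2 in the GFP lists and 81.7, 85.6 and 75.2 in the Ezh2 lists, with no peak in either Ezh2-Y726D list. In these 4 regions, and in the other 2 of the 6, every Ezh2 list exceeded every GFP list. The share of all merged regions with this order was not counted, so the order is not given as a trait of Bcl2. The main rank test left these regions out, since they were not present in all 8 lists. Only the alternative with regions in at least 5 lists took them in. The other 2 regions were weaker, with percentiles from 11.0 to 46.0 in the GFP lists and from 37.9 to 65.2 in the Ezh2 lists. With any 1 list left out, 6 or 7 Bcl2 regions were lost in Ezh2-Y726D against GFP, where 4.72% to 6.55% of all merged regions were. With a −log10 q of at least 5 they were 5 (3.86% of all). With peaks covering at least 0.5 of the region they were 3 (4.26% of all).

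**Figure D4:**
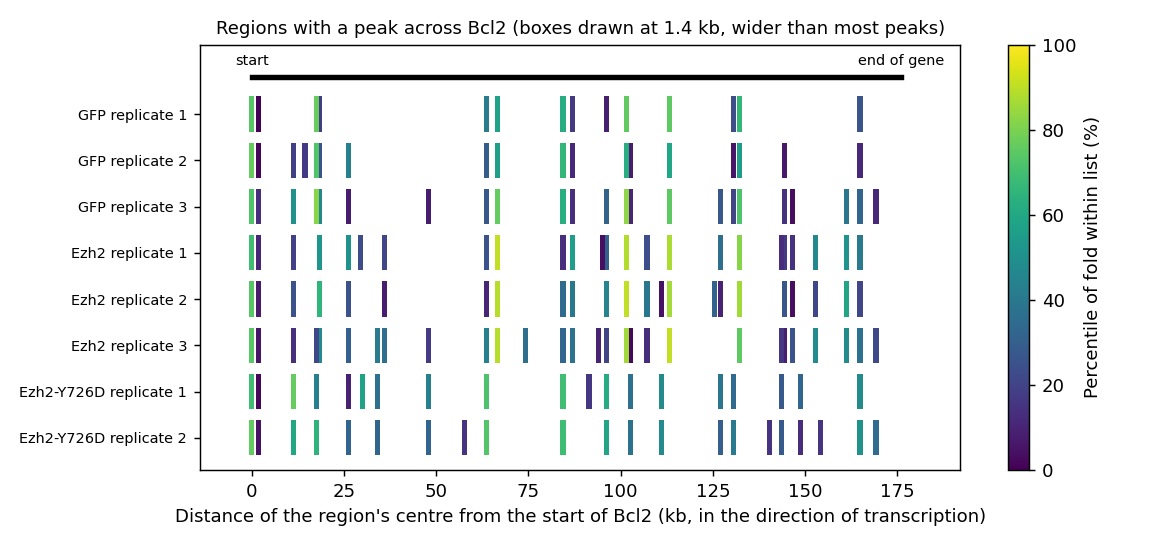
Regions with a peak across Bcl2 in each of the 8 lists (rows), placed by the distance of the region's centre from the start (x axis, kb) and coloured by percentile of fold within the list. The regions centred at 66.7, 101.5, 113.3 and 132.3 kb are filled in the GFP and Ezh2 lists and empty in both Ezh2-Y726D lists, next to other regions that Ezh2-Y726D lists do fill, and the start is filled in all 8.

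The regions outside Bcl2 that were lost with Ezh2-Y726D against GFP had lower mean percentiles in the GFP lists than the 4 strongest Bcl2 regions above. At Pmaip1, of 5 regions in the window only that at the gene had a peak in the Ezh2-Y726D lists. The region 5.16 kb before the lower-coordinate end of the gene had percentiles of 16.3, 59.9 and 56.3 in the GFP lists and 17.1, 66.0 and 68.0 in the Ezh2 lists, with no peak in either Ezh2-Y726D list. A region 12.7 kb beyond that end had percentiles of 29.1, 31.9 and 32.0 in the GFP lists and 36.7, 49.9 and 60.5 in the Ezh2 lists, with no peak in either Ezh2-Y726D list, and the region 9.38 kb beyond it had percentiles of 30.1, 18.7 and 32.9 in the GFP lists and 50.7, 26.9 and no peak in the Ezh2 lists, with no peak in either Ezh2-Y726D list. In Apaf1, chr10:91076532-91077291 (5.83 kb downstream of the start) had percentiles of 38.9, 46.7 and 55.4 in the GFP lists and 52.4, 64.1 and 63.6 in the Ezh2 lists, with no peak in either Ezh2-Y726D list. In Bcl2l1, chr2:152787510-152788042 was weak in the control, with percentiles of 6.80, 1.17 and 2.50 in the GFP lists and 37.4, 27.5 and 43.2 in the Ezh2 lists, with no peak in either Ezh2-Y726D list. Some regions had a peak with Ezh2-Y726D and not with GFP: these were 4 in Bcl2 and 1 in Apaf1, and the strongest was chr1:106602865-106603388 in Bcl2, with percentiles of no peak, 4.63 and no peak in the Ezh2 lists and 48.3 and 47.3 in the Ezh2-Y726D lists, with no peak in any GFP list. The next were chr1:106679923-106680349 in Bcl2, with percentiles of no peak, no peak and 41.5 in the Ezh2 lists and 37.0 and 32.4 in the Ezh2-Y726D lists, with no peak in any GFP list, and chr10:91027452-91027790 in Apaf1, with percentiles of 20.0 and 36.1 in the Ezh2-Y726D lists, with no peak in any GFP list and no peak in any Ezh2 list.

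The number of regions gained with Ezh2 against GFP fell to 2 with lists of equal length and to 3 with a −log10 q of at least 5. Of all regions, 2.14% and 2.16% were gained there. The number was 5 when peaks had to cover at least 0.5 of the region (3.37% of all regions). It was 6 to 9 with 1 sample left out, where 2.72% to 5.01% of all regions were gained. The 6 gained regions of the main count were weak, with mean percentiles under 50 in each. They comprised 3 in Bcl2, 2 in Hrk and 1 at Pmaip1, and no Ezh2-Y726D list had a peak in any of them. The strongest, chr1:106560998-106561714 in Bcl2, had percentiles of 47.0, 21.2 and 47.8 in the Ezh2 lists, with no peak in any GFP list and no peak in either Ezh2-Y726D list. The next, chr1:106606916-106607339, also in Bcl2, had percentiles of 23.7, 39.4 and 13.3 in the Ezh2 lists, with no peak in any GFP list and no peak in either Ezh2-Y726D list. The gained region at Pmaip1 had percentiles of 19.6, 29.1 and 22.0 in the Ezh2 lists, with no peak in any GFP list and no peak in either Ezh2-Y726D list. In Hrk, chr5:118187592-118188025 had percentiles of 21.0, 12.9 and 30.2 in the Ezh2 lists, with no peak in any GFP list and no peak in either Ezh2-Y726D list. Of the 3 regions lost with Ezh2, chr5:118195352-118196149, downstream of Hrk and inside Rnft2, had percentiles of 38.9, 41.4 and 39.4 in the GFP lists, with no peak in any Ezh2 list and no peak in either Ezh2-Y726D list. It was the only one of the 12 regions lost with Ezh2-Y726D that was lost with Ezh2 as well. The others, chr2:152785405-152785989 in Bcl2l1 and chr1:106583280-106584252 in Bcl2, kept a peak in both Ezh2-Y726D lists, with percentiles of 45.3 and 56.5 in the first and 34.0 and 40.7 in the second.

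Peaks at genes of other cell types were also missing from the Ezh2-Y726D lists. Of 20 T cell markers, 7 had a peak in all GFP lists and in neither Ezh2-Y726D list (Cd3g, Cd8a, Cd8b1, Zap70, Lat, Cd28 and Il7r), while Cd3e, Cd3d, Cd4, Cd2 and Cd5 were among those with a peak in all 8 lists. The summed highest fold of the list ran from 81.6 to 97.4 in GFP, from 92.4 to 102.6 in Ezh2 and from 34.7 to 41.6 in Ezh2-Y726D. Of 20 microglia and macrophage markers, 7 were missing in the same way (Cx3cr1, C1qb, Tyrobp, Ptprc, Fcer1g, Cd68 and Ly86), with sums from 78.0 to 94.6, from 94.3 to 102.3 and from 52.1 to 54.1. The corresponding number was 0 of 20 for RGC, rod, amacrine and Müller glia markers. These markers move with the regions of Bcl2, Pmaip1, Apaf1 and Bcl2l1 that lacked a peak with Ezh2-Y726D, and their part in that result was not tested.

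Other genes of the pathway were read at their own gene-start regions. Of 13 further BCL2 family genes, 9 were present in all lists and tested. In both comparisons with GFP, limma called 0 of the 9. In Ezh2 against Ezh2-Y726D, Bik, a BH3-only gene read at either gene end, was higher, with a difference of 0.94 (SE 0.19, adjusted p = 0.0104), and Mcl1, a survival gene, was lower, with -0.60 (SE 0.17, adjusted p = 0.0436). Percentiles at Mcl1 were 77.5, 76.0 and 75.0 in the GFP lists, 68.4, 72.3 and 69.2 in the Ezh2 lists and 85.3 and 84.5 in the Ezh2-Y726D lists. Ezh2-Y726D lists were the highest and Ezh2 lists the lowest, without overlap. At Bik the order was the reverse, with 69.1, 68.7 and 75.2 for GFP, 83.0, 85.5 and 79.2 for Ezh2 and 51.1 and 63.3 for Ezh2-Y726D. Of 16 caspases, mitochondrial factors and inhibitors, 15 were tested, and of 12 upstream transcription factors and kinases, 12. Limma called 0 of these in each of the 3 comparisons. Of the 36 pathway genes tested, 2 were thus called in Ezh2 against Ezh2-Y726D, where 14.0% of all tested regions were. In Ezh2 against GFP and in Ezh2-Y726D against GFP 0 were called, where 4.44% and 8.21% of all regions were. At an unadjusted limma p under 0.05, 4 of the 36 passed in Ezh2 against Ezh2-Y726D, where 29.4% of all regions did. Against GFP, 3 passed in each comparison, where 20.0% of all regions did for Ezh2 and 24.4% for Ezh2-Y726D. The starts of Bcl2a1b, Bcl2l14 and Casp8, the initiator caspase of the extrinsic route, had a peak in all 6 GFP and Ezh2 lists and in neither Ezh2-Y726D list. The same held for 3.61% of all merged regions. Bcl2a1d lacked a peak in Ezh2-Y726D replicate 1. Casp8 percentiles were 84.2, 53.8 and 84.1 in the GFP lists and 73.5, 81.0 and 79.7 in the Ezh2 lists.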

How the data were processed

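ATAC-seq of sorted RGCs was examined in 8 samples, grouped by their titles. The authors called peaks per sample and deposited 1 narrowPeak list each on GRCm38. The submitters' processing notes name cutadapt, Bowtie2, SAMtools, Picard, MACS2 and deepTools. The caller's threshold is not given in the sources used here. The deposited fold is the ratio of the summit pileup to local background, the deposited −log10 p-value and q-value are the caller's, and the deposited score was not used. Genes came from the RefSeq table of GRCm38.p6, which lists no exons.

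Merged regions were compared by presence and by limma (3.58.1, R 4.3.3) on normal scores of the fold rank, all 8 samples in 1 fit, called at an adjusted p under 0.05. The method was tested on simulated data. The members and gene lists were chosen with earlier results of these data known. Named were all 9 genes, up to 6 called regions per comparison by size, up to 3 gained and 3 lost per comparison by mean percentile, and up to 3 called pathway genes per comparison. Further Bax, Casp9, Pmaip1, Apaf1, Bcl2l1 and Hrk regions, and genes whose starts lacked a peak with Ezh2-Y726D, were named after their values were seen. The sources used here do not say that replicates came from separate animals, so p-values measure the spread between these samples, and depth is unknown. The labels give no batch. Replicates are numbered by the titles. Peak names in the lists of Ezh2-Y726D replicates 1 and 2 carry the numbers 2 and 3, and a replicate block by these was added after seeing the data. Alternatives were 7 settings for rank, 4 for presence, each sample left out, and the added block.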

Additional observations from a re-analysis of the deposited data

How the results depend on the processing

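Counts of regions called by rank were small and moved easily, and the share of all regions called moved with the setting too. In Ezh2 against GFP the 4 calls, where 4.44% of all regions were called, became 2 when regions were ranked by −log10 p (3.99% of all). With ranks among all peaks of a list they were 2 (2.11% of all), and among the 69 regions in at least 5 lists 7 (3.66%). With 1 GFP or Ezh2 sample left out they were 0 (without GFP replicate 2) to 4. In those fits 1.30% to 2.95% of all regions were called, with the lowest share also without GFP replicate 2. In Ezh2-Y726D against GFP the 4, where 8.21% of all regions were called, became 2 with −log10 p (10.1% of all). With 1 GFP or Ezh2 sample left out they were 1 to 4, where 4.69% to 7.84% of all regions were. In Ezh2 against Ezh2-Y726D the 4, where 14.0% of all regions were called, became 7 in at least 5 lists (9.29% of all). Without GFP replicate 1 and without Ezh2 replicate 2 they were 5 each, where 13.2% and 10.6% of all regions were. They stayed at 4 without GFP replicate 2, GFP replicate 3 or Ezh2 replicate 1, where 10.1% to 12.9% of all regions were. With −log10 p the split of higher and lower regions turned from 3 and 1 to 0 and 2 in Ezh2-Y726D against GFP, and from 0 and 4 to 2 and 3 in Ezh2 against Ezh2-Y726D. Of all regions 10.1% and 14.2% were called there. Among regions in at least 5 lists, the split of Ezh2 against GFP turned from 1 higher and 3 lower to 4 and 3, where 3.66% of all regions were called. Leaving out an Ezh2-Y726D sample leaves 1, assumed to vary like the other groups. Of 12 called results, 2 kept the call in every alternative, and 53 of 177 alternatives lost it, each with the direction kept. At the gene starts, 403 of 405 alternatives made no call. Those that did were at Pmaip1 with −log10 p, -0.65 in Ezh2-Y726D against GFP and 0.83, with the sign turned, in Ezh2 against Ezh2-Y726D; the cause was not tested. Same-numbered samples deviated together weakly at most (correlation of deviations from -0.0151 to 0.0478 over 7 same-numbered pairs). Of 8 samples, 6 were closest to a same-numbered one, so a weak pairing is not excluded. With a replicate block the calls were 2, 3 and 4 in the 3 comparisons, where 3.17%, 6.92% and 11.6% of all regions were called. By the numbers in the peak names, a pairing chosen after seeing the data, the correlations ran from 0.0018 to 0.0478. The calls with that replicate block were 1, 3 and 4, where 2.82%, 4.67% and 9.66% of all regions were.

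Presence counts moved too. The 17 regions gained or lost in Ezh2-Y726D against GFP, where 9.49% of all regions were, became 11 when peaks covering under 0.5 of the region were left out. There the lost ones fell from 12 to 5, and 10.5% of all regions were gained or lost. With 1 sample left out they were 17 to 23, where 9.49% to 15.6% of all regions were. Of the latter, 11 were gained and 12 lost without Ezh2-Y726D replicate 1, and 8 and 14 without its replicate 2, against 5 and 12. Of all regions, 9.75% and 5.75%, 9.04% and 6.54%, and 4.77% and 4.72% were, in that order. The 9 of Ezh2 against GFP became 9 to 13, with 7 lost in place of 3 without Ezh2 replicate 3, and the 27 of Ezh2 against Ezh2-Y726D 27 to 35. With lists of equal length, the split of Ezh2 against GFP turned from 6 gained and 3 lost to 2 and 5, where 2.14% and 2.23% of all regions were. That of Ezh2 against Ezh2-Y726D moved from 23 and 4 to 18 and 8, where 7.76% and 6.04% of all regions were. With a −log10 q of at least 5 the split of Ezh2 against Ezh2-Y726D was 15 and 9, where 7.42% and 4.86% of all regions were. With peaks covering at least 0.5 of the region it was 21 and 7, against 9.19% and 8.01%. Without Ezh2 replicate 3 it was 24 and 11, against 10.2% and 8.30%. Without Ezh2-Y726D replicate 1 it was 23 and 10, against 10.2% and 11.2%, and without replicate 2 25 and 7, against 10.9% and 10.3%. Lists without read numbers limit every comparison to ranks and presence, and a region without a peak may be open below the caller's threshold.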
